A study of Mus musculus with 4 samples.

Results

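The cytoplasmic ribosomal protein genes encode the proteins of the large and the small subunit of the ribosome. They were chosen by symbol: Rpl or Rps followed by a number with an optional a, l or x, or Rplp0, Rplp1, Rplp2 or Rpsa, without mitochondrial, kinase or pseudogene symbols. Of the 18193 genes that a probe set measured alone, 46 met this rule, 24 of the large and 22 of the small subunit, and they were covered by 100 of the 45101 probe sets. RefSeq lists 81 protein-coding genes with such a symbol, of which 36 had no probe set to themselves, Rplp1, Rpl10 and Rpl36a among them. Total RNA of 4 mouse cell populations was hybridised to 1-colour Affymetrix arrays, 1 array per population. MEF are mouse embryonic fibroblasts, and NSC are neural stem cells derived from primary tissue. The 2 induced neural stem cell samples, iNSC_13F and iNSC_14F, were made with 13 and 14 factors. NSC and induced cells shared N2 medium with EGF, bFGF and laminin, whereas the growth of MEF, the identity of the factors and the starting cell of each induced sample are not given in the labels. With 1 array per group no difference has a replicate check, so no SD or p-value is given, and precision is limited by how few arrays there are.

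Each ribosome holds 1 copy of nearly every one of these proteins, so a cell needs them in matching amounts, and a proliferating cell spends much of its RNA and energy on making them. Their mRNAs are among the most abundant of a cell and typically begin with a run of pyrimidines, the terminal oligopyrimidine (TOP) tract, through which the kinase mTOR and the protein Larp1 govern their translation. That control acts on translation, which an array of total RNA does not measure. Most of these genes also have many processed pseudogenes, and probe sets for them can read the copies too.

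The TOP tract is the sequence feature that these genes are known to share. It was searched in the RefSeq promoter windows (GRCm38.p6) as a run of at least 8 pyrimidines that begins with C on the sense strand, from 30 bases before to 50 bases after the annotated start. Of the 46 genes, 40 had a window, and 32 of the 40 (80%) held such a run, against 26% of all 27025 genes with one. The tract is in capitals for genes that the results turn on. Rpl27a, Rpl14 and Rps27 are genes of low signal with a difference of at least 2-fold between some arrays, and Rps6 is the mTOR pathway readout. Rplp2, Rps18, Rpl4 and Rpl11 are bright genes of both subunits, and Rps27l and Rpl39l are paralogs.
Rpl27a (chr7:109519183-109519210, plus strand): ttcgtgagCTCCTCCCTTTTCCCTTTCT
Rpl14 (chr9:120571501-120571528, plus strand): agggcgggCCCTCTCTCTTCTCgctgag
Rps27 (chr3:90213631-90213658, minus strand): cgctttcgCTCCTTTCCggcggtgacga
Rps6 (chr4:86857349-86857376, minus strand): aagtcgggCCTCTTTTTCgtgacgcctc
Rplp2 (chr7:141447639-141447666, plus strand): gtcagcgtCTTCCTTTCgccgccggacg
Rps18 (chr17:33955648-33955675, minus strand): cacttccgCTCTCTCTTCCacaggaggc
Rpl4 (chr9:64173405-64173432, plus strand): gagcgtggCCTTCTCCTCTCCCCgtcat
Rpl11 (chr4:136053360-136053387, minus strand): ccggaagtCTCCCTCTCTCTTCCTgttc
Rps27l (chr9:66946056-66946083, plus strand): cgcctccaCTCCTCTCCactcctccccg
Rpl39l (chr16:10170194-10170221, plus strand): acccactgCCTCTCCCTagctcccaggc
The annotated start lies inside the tract of Rpl27a, Rpl14, Rps27, Rps6, Rplp2 and Rps18, upstream of the tract of Rpl4 and Rpl11, and downstream of the tract of Rps27l and Rpl39l. Tracts were present in genes of high signal and in genes of low signal alike. Of the 40 genes, 20 (50%) held CCGGAAG or its reverse complement CTTCCGG, letters of an ETS family site, within the 300 bases around the start, against 9.93% of all genes. The string AAGATGGC or GCCATCTT, letters of a YY1 site, was found in 3 of the 40 (7.50%) against 3.19%, and TATAAA or TTTATA in 5 (12.5%) against 15.7%. These are matches of letters and show no binding.

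Cell labels were checked against defining genes. Of 8 fibroblast markers, 7 were above the floor on MEF, 1 on NSC, 4 on iNSC_13F and 3 on iNSC_14F, and their summed signal was 177980 on MEF against 451 to 3957 on the other arrays. Of 8 neural stem cell markers, 3 were above the floor on MEF and all 8 on each of the other arrays. Hepatocyte markers reached at most 125, B lymphocyte markers at most 56.7, and pluripotent cell markers at most 88.0 on any array, while at most 4 of 5 neuron and 1 of 3 oligodendrocyte markers were above the floor. The floor is a signal of 103.91, set from 86 probe sets of smell, pheromone and taste receptor genes. The NSC array stood apart in its technical controls: the mean signal of its 18 hybridization control probe sets was 4081, against 7558 to 8596 on the other arrays, and that of its 24 poly-A control probe sets was 452, against 966 to 1578. Its 3 probe sets for 18S rRNA had a geometric mean signal of 6945, against 20348 to 22394. Their 5′, middle and 3′ signals were 13288, 5820 and 4332 on NSC, 29530, 20562 and 13984 on MEF, 33092, 22735 and 14926 on iNSC_13F, and 29253, 17923 and 16067 on iNSC_14F. The brightest probe set of the NSC array read 37965, against 66957 to 73179. The deposited scaling fixes the trimmed mean of every array at 500, and the part of these differences in the results was not tested.

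Most ribosomal protein genes were read at high signal on every array, with the arrays in the same order for most of them. Of the 46, 34 had a mean signal over 10000, between 23984 and 57728, 8 were above the floor on all arrays with a mean between 395 and 6136, 2 were above it on some arrays, and 2 were below it on all. The signal of a probe set depends on its probes as well as on the transcript, so these classes describe probe sets and give no order of transcript amounts. The median signal of the 46 genes was 35180 on MEF, 25799 on NSC, 39644 on iNSC_13F and 42851 on iNSC_14F. Their share of the summed signal of all genes was 6.14% on MEF, 4.61% on NSC, 6.73% on iNSC_13F and 6.90% on iNSC_14F. Both measures were lowest on NSC and highest on iNSC_14F in the deposited scaling. In bulk RNA, fewer cells that express a gene and less of its RNA per cell cannot be told apart.

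**Figure D1:**
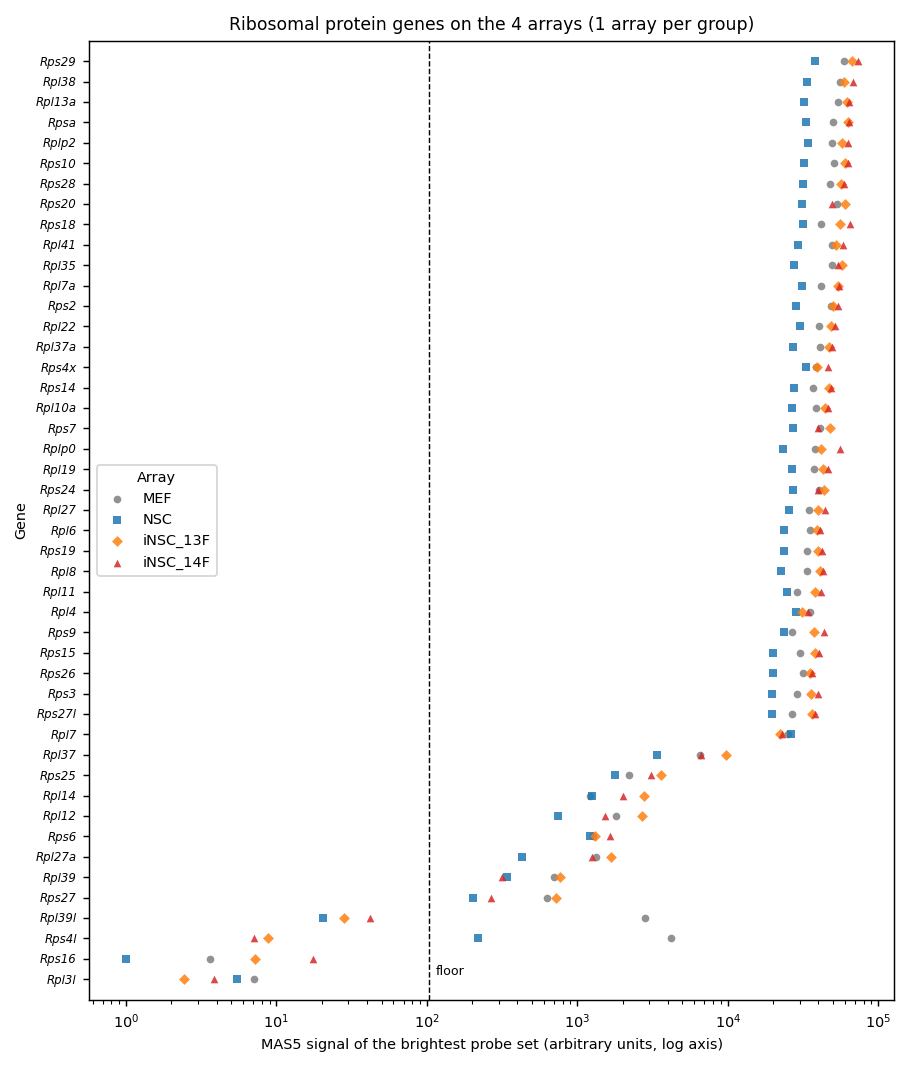
Deposited MAS5 signal of each ribosomal protein gene (rows, ordered by mean signal) on the 4 arrays, on a log axis in arbitrary units, with the floor of 103.91 as a dashed line and 1 point per array. In the 34 upper rows the NSC square lies left of the other points except for Rpl7, an order that depends on the deposited scaling, and Rpl39l and Rps4l are far to the right on MEF alone.

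In the comparison of NSC with MEF, 44 genes were measured, that is, above the floor on at least 1 of the 2 arrays. Their median log2 difference was -0.58, or 1.49-fold lower on NSC, a direction that turned to 0.31 when arrays were scaled to their hybridization controls. Over all 11415 genes measured the median was -0.01, and over the 329 other genes with a mean signal over 10000 it was -0.17. On NSC 0 of the 44 were at least 2-fold higher, where 19.6% of all genes were, and 6 (13.6%) were at least 2-fold lower, where 17.2% of all genes were. Those 6 were Rpl12, Rpl27a, Rpl39, Rps27, Rpl39l and Rps4l, none of them among the 34 bright genes. The bright genes were therefore under 2-fold apart, 33 of 34 lower on NSC in the deposited scaling.

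Against MEF, iNSC_13F had a median difference of 0.20 and iNSC_14F one of 0.29, with 44 genes measured in each case; the median over all genes was 0.09 and 0.11, and over the other bright genes 0.45 and 0.47. Read on the brightest probe set of each gene, only Rpl14 was at least 2-fold higher on iNSC_13F (15.7% of all genes were). Rpl39l and Rps4l were at least 2-fold lower there (20.5% of all genes). On the same probe sets 0 genes were at least 2-fold higher on iNSC_14F (18.1% of all genes). Rpl39, Rps27, Rpl39l and Rps4l were at least 2-fold lower on iNSC_14F (18.6% of all genes). Both medians lay below those of the other bright genes, and relative to all genes both changed sign under quantile normalization, to -0.11 and -0.12. The 2 comparisons share the MEF array.

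Against NSC, the induced arrays read the ribosomal protein genes higher as deposited, with medians of 0.83 on iNSC_13F and 0.87 on iNSC_14F over 43 measured genes, which became -0.25 and -0.03 with scaling to hybridization controls. All genes measured had medians of 0.30 and 0.33, and the other bright genes medians of 0.70 and 0.69. On iNSC_13F 8 genes (18.6%) were at least 2-fold higher, against 14.9% of all genes: Rpl27a, Rpl12, Rps27, Rpl37, Rpl39, Rpl14, Rpl35 and Rps25. On iNSC_14F 8 genes were at least 2-fold higher too, against 16.9% of all genes: Rpl27a, Rplp0, Rpl12, Rps15, Rps18, Rpl38, Rpl13a and Rps3. Rps4l was the 1 gene at least 2-fold lower in each comparison, where 20.5% and 19.1% of all genes were. The NSC array is shared by both comparisons, so its own controls bear on both.

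Between the induced arrays 42 genes were measured, with a median difference of 0.07 (iNSC_14F minus iNSC_13F), equal to that of all genes and turned to -0.04 by scaling to the median of other genes. None was at least 2-fold higher on iNSC_14F, where 5.99% of all genes were, and Rps27 and Rpl39 were at least 2-fold lower, where 2.95% were. Large and small subunit genes had similar medians in each of the 6 pairs of arrays. The medians of large and small subunit genes were -0.58 and -0.58 for NSC minus MEF, 0.81 and 0.83 for iNSC_13F minus NSC, and 0.07 and 0.07 between the induced arrays. For iNSC_13F minus MEF they were 0.20 and 0.23, for iNSC_14F minus MEF 0.26 and 0.32, and for iNSC_14F minus NSC 0.84 and 0.88.

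The bright genes stayed close to each other. The interquartile range of their log2 differences was 0.24 for NSC minus MEF, 0.14 for iNSC_13F minus NSC and 0.10 between the induced arrays. For the 329 other genes of a mean signal over 10000 these ranges were 0.72, 0.45 and 0.27. The sets were not matched for signal, since the bright members had means between 23984 and 57728 and the others any mean over 10000. The part of signal in the narrower ranges was not tested. In 28 of the 34 bright genes the order of the arrays was NSC, MEF, iNSC_13F, iNSC_14F from low to high in the deposited scaling. One scaling factor per array moves all 34 together, so this is no count of 34 separate observations.

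**Figure D2:**
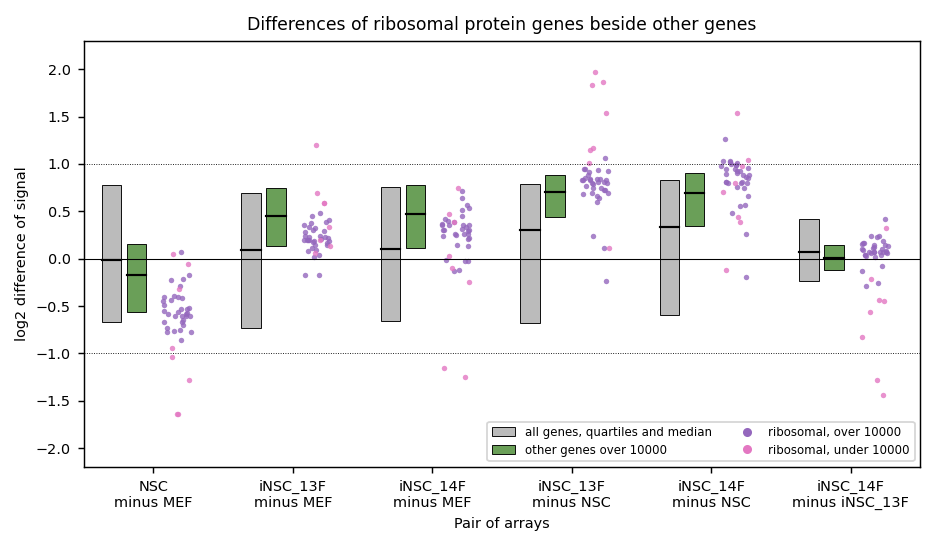
Log2 differences of signal for the 6 pairs of arrays: boxes give the quartiles and median of all genes (grey) and of other genes with a mean signal over 10000 (green), and points are ribosomal protein genes above the floor on all arrays, over (purple) or under (pink) that signal. The purple points form a narrow group, centred on -0.57 for NSC minus MEF and on 0.81 and 0.88 for the induced arrays minus NSC as deposited, signs that turn with scaling to hybridization controls, and the pink points spread more widely.

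The brightest members showed the common order. Rps29, a small zinc-binding protein of the small subunit, had signals of 59291 on MEF, 37965 on NSC, 67418 on iNSC_13F and 73179 on iNSC_14F. Rpl38, which is needed in the mouse embryo for translation of Hox mRNAs, had 55742, 33546, 59568 and 68009 on the same arrays. Rpl13a, a large subunit protein that also silences translation of inflammatory mRNAs when released, had 54271, 31983, 61645 and 64345. All of them were lowest on NSC and highest on iNSC_14F, and iNSC_14F was 1.00 or more above NSC on the log2 scale for Rpl38 (1.02) and Rpl13a (1.01).

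The stalk proteins recruit the translation factors that use GTP. Rplp0, the base of the stalk, had signals of 37872 on MEF, 23380 on NSC, 41847 on iNSC_13F and 55977 on iNSC_14F. On the probe set that stands for each gene, Rplp0 differed most between arrays of all bright members, 2.39-fold between NSC and iNSC_14F. With 0.42 it also had the largest higher value on iNSC_14F against iNSC_13F. Another bright probe set, of Rpl27, differed 2.47-fold between NSC and iNSC_13F. Rplp2, 1 of the acidic proteins bound to Rplp0, had 49642, 34387, 57735 and 63428, a difference of 0.14 between the induced arrays. NSC was the lowest and iNSC_14F the highest array for both stalk genes.

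Rpsa, Rps18, Rps15 and Rps9 of the small subunit had the common order too, with differences of unequal size, whereas Rps20, Rps24 and Rps7 of the same subunit had another. Rpsa, known also as a laminin receptor precursor, had 50259 on MEF, 33072 on NSC, 62945 on iNSC_13F and 64410 on iNSC_14F. Rps18, a protein of the subunit's head that contacts the large subunit, had 41675, 31734, 55385 and 64812, so that iNSC_14F was 0.64 above MEF and 1.03 above NSC. Rps15, a head protein needed for export of the subunit from the nucleus, had 30292, 19883, 38156 and 40613. NSC was lowest and iNSC_14F highest in each, with iNSC_13F closest to iNSC_14F for Rpsa. Rps9, a protein that binds early in assembly of the subunit, had 26744, 23660, 37291 and 43904. Its 0.72 above MEF on iNSC_14F was the largest such value of a bright member on the probe set that stands for each gene. The dimmer probe sets of Rps9 gave -0.08 and 0.44, and a second bright probe set of Rps15 gave 0.79. Rpl35, a large subunit protein at the mouth of the exit tunnel, had 49642, 27445, 57321 and 54332. It was the only bright member at least 2-fold apart between iNSC_13F and NSC (1.06) on the probe set that stands for each gene. Other bright probe sets, those of Rpl27, Rpl13a and Rps27l among them, also passed 2-fold in that pair, at up to 1.30.

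Rpl7 and Rpl4 had the smallest ranges of the bright members. Rpl7, a large subunit protein with 3 probe sets, had 24996 on MEF, 26150 on NSC, 22218 on iNSC_13F and 22785 on iNSC_14F. It was the only bright member highest on NSC, its range was 1.18-fold, and all 3 probe sets read NSC highest. Rpl4, which lines the exit tunnel, had 34940, 28609, 30949 and 34276, highest on MEF and lowest on NSC, with a range of 1.22-fold. Relative to the median of all genes, Rpl7 was at 0.08 for NSC minus MEF and at -0.54 for iNSC_13F minus NSC. Rps4x, the X-linked gene for protein S4, had 38816, 33255, 39216 and 46415, with NSC lowest and iNSC_14F highest.

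Rps24, a small subunit protein needed for processing of the small rRNA, had 40443 on MEF, 27088 on NSC, 43638 on iNSC_13F and 39988 on iNSC_14F, a range of 1.61-fold with NSC 0.58 below MEF on the log2 scale as deposited. On the probe set that stands for each gene, Rps24, Rps20 and Rps7 had iNSC_13F highest and iNSC_14F under MEF, by 0.02, 0.12 and 0.03. That place of iNSC_14F differed between probe sets of each gene. A second bright probe set of Rps20 and one of Rps7 read iNSC_14F above MEF, by 0.13 for both, and the 5 probe sets of Rps24 above the floor on all arrays ranged from -1.19 to 0.05 for iNSC_14F minus MEF.

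The 8 genes of lower signal differed more between arrays and in another order. Their ranges were 1.36-fold to 3.93-fold with a median of 2.67-fold, against a median of 1.85-fold for the bright genes. All 8 were higher on iNSC_13F than on MEF, and 7 of 8 were lower on iNSC_14F than on iNSC_13F, where 30 of 34 bright genes were higher. Of the 12 members outside the bright class, 9 are also named by a probe set of several genes with a mean signal over 10000, which was not used for them. Their values are therefore those of 1 probe set each and not necessarily of the main transcript.

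Rpl27a, a large subunit protein, had signals of 1333 on MEF, 429 on NSC, 1685 on iNSC_13F and 1246 on iNSC_14F. NSC was 3.11-fold lower than MEF, and iNSC_13F was 3.93-fold and iNSC_14F 2.91-fold higher than NSC. Rpl12, at the base of the stalk, had 1804, 742, 2709 and 1523, so that iNSC_13F was 3.65-fold higher than NSC and the induced arrays lay on opposite sides of MEF. Rpl37, a zinc-binding large subunit protein, had 6491, 3371, 9773 and 6627. For these 3 genes NSC was lowest and iNSC_13F highest, and iNSC_14F lay within 0.24 of MEF.

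Rps27, a zinc-finger protein of the small subunit, had signals of 629 on MEF, 203 on NSC, 722 on iNSC_13F and 266 on iNSC_14F. Rpl39, a very small X-linked protein of the exit tunnel, had 700, 341, 767 and 315. In both genes MEF and iNSC_13F were high and NSC and iNSC_14F low. Rps27 was 2.72-fold and Rpl39 2.44-fold lower on iNSC_14F than on iNSC_13F. These differences kept their sign under all alternatives run, between -1.56 and -1.27 for Rps27 and between -1.40 and -1.11 for Rpl39. Each gene has 1 probe set, above the floor on all arrays. Alternatives that change the choice of probe sets or filter by the floor therefore could not move these values.

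Rpl14, a large subunit protein, had signals of 1207 on MEF, 1246 on NSC, 2766 on iNSC_13F and 2027 on iNSC_14F. On the probe set that stands for each gene, Rpl14 was the only member at least 2-fold higher on an induced array than on MEF, 2.29-fold on iNSC_13F. Dimmer probe sets of Rpl22, Rpl41 and Rps3 also passed 2-fold. They were 3.43-fold, 2.79-fold and 2.10-fold higher on iNSC_13F than on MEF. On iNSC_14F the same probe sets were 4.46-fold, 1.38-fold and 2.40-fold higher than on MEF. Rps25, a head protein needed for translation from some viral internal entry sites, had 2222, 1783, 3579 and 3089. In both genes the induced arrays were above MEF and NSC. Rps6, whose phosphorylation is the usual readout of mTOR signalling, had 1262, 1213, 1313 and 1647, the smallest range of the 8 genes at 1.36-fold. It was also the only one of the 8 higher on iNSC_14F than on iNSC_13F.

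Paralogs showed the largest differences of the set. Rpl39l, a copy of Rpl39 known for its use in male germ cells, had a signal of 2828 on MEF and was below the floor on the other arrays, at 20.4 on NSC, 27.9 on iNSC_13F and 41.6 on iNSC_14F. It was at least 27.2-fold lower on each of the 3 than on MEF. Rps4l, a copy of the S4 gene that RefSeq lists as a transcribed pseudogene although its symbol meets the rule, had 4221 on MEF, 220 on NSC, 8.74 on iNSC_13F and 7.13 on iNSC_14F. NSC was 19.2-fold lower than MEF, and the induced arrays were at least 40.6-fold lower than MEF and at least 2.12-fold lower than NSC. MEF was the high array for both paralogs. Of the genes they resemble, Rpl39 was at -1.04 on NSC, 0.13 on iNSC_13F and -1.15 on iNSC_14F relative to MEF on the log2 scale, and Rps4x at -0.22, 0.01 and 0.26. Each paralog rests on 1 probe set.

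Rps27l, a paralog of Rps27 known as a target of p53, followed the bright genes, with signals of 26773 on MEF, 19731 on NSC, 36489 on iNSC_13F and 38111 on iNSC_14F. Its other 2 probe sets also read NSC lowest. Rpl3l, the form of Rpl3 used in heart and skeletal muscle, was below the floor on all arrays, at 2.42 to 7.14. Rps16, a core small subunit protein, was also below it on all arrays, at 1.00 to 17.4, on its 1 probe set. Rps16 is named by 2 probe sets of several genes as well, both with a mean signal over 10000, so the low value of its own probe set gives no level for its transcript.

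Probe sets of 1 gene mostly had 1 direction in the pairs with NSC, and less often between the induced arrays. Among 19 genes with at least 2 probe sets above the floor on all arrays, all probe sets had 1 direction in 17 genes for NSC minus MEF, in 19 for iNSC_13F minus NSC and in 18 for iNSC_14F minus NSC. Between the induced arrays this held for 8 of 19. In each pair with NSC, 64 of the 67 probe sets with a mean signal over 10000 shared 1 direction as deposited. Agreement within a gene in those pairs therefore cannot be told apart from a shift common to the array. The 67 probe sets with a mean signal over 10000 had a median difference of 0.06 between the induced arrays, 46 of them higher on iNSC_14F. The 17 dimmer ones above the floor on all arrays had a median of -0.45, 14 of them lower on iNSC_14F. For iNSC_13F minus NSC, 12 of the 17 dimmer probe sets were at least 2-fold higher, against 10 of the 67 bright ones. Of all genes measured, each read on its brightest probe set, 14.9% were.

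Probe sets of some genes also differed within the gene. Rpl41, a very short protein of the large subunit, had 49367 on MEF, 29384 on NSC, 52107 on iNSC_13F and 58370 on iNSC_14F on its brightest probe set. A dimmer probe set of Rpl41 had 763, 666, 2016 and 983, highest on iNSC_13F. Rps9 had 1221, 520, 2261 and 1154 on a dimmer probe set, again highest on iNSC_13F, where its brightest was highest on iNSC_14F. Rpl22, an RNA-binding large subunit protein, had a dimmer probe set with 1711 on MEF, 3829 on NSC, 5865 on iNSC_13F and 7636 on iNSC_14F, and its NSC value was above MEF (1.16) where the brightest probe set was below (-0.41). Rps3, a small subunit protein that also acts in DNA repair, likewise had a dimmer probe set with NSC above MEF, at 2394 against 1498. Unlike those of Rpl41 and Rps9, the dimmer probe sets of Rpl22 (0.38) and Rps3 (0.19) were higher on iNSC_14F than on iNSC_13F. Which transcripts the dimmer probe sets read was not tested.

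**Figure D3:**
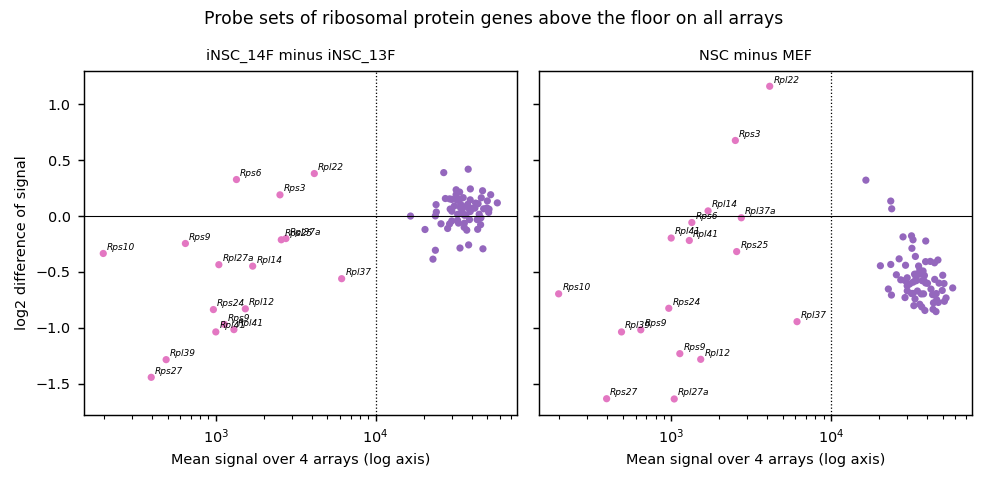
Log2 difference against mean signal (log axis) for each probe set of a ribosomal protein gene above the floor on all arrays, for iNSC_14F minus iNSC_13F (left) and NSC minus MEF (right), with the line at a mean signal of 10000. The 67 probe sets right of the line lie close to their median, 0.06 on the left and -0.58 on the right as deposited, and the 17 named ones left of it scatter between -1.44 and 0.38 and between -1.64 and 1.16.

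The 110 probe sets that name several genes, at least 1 of them with a symbol of the rule, are a separate set of probes on the same arrays. Of these, 79 had a mean signal over 10000. Their median difference was -0.46 for NSC minus MEF, 0.22 and 0.31 for iNSC_13F and iNSC_14F minus MEF, 0.72 and 0.83 for iNSC_13F and iNSC_14F minus NSC, and 0.06 between the induced arrays. They share the arrays' scaling with the probe sets of 1 gene and were not scaled to hybridization controls.

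The level of the group as a whole depended on how the arrays were put on 1 scale. With quantile normalization the median for NSC minus MEF was -0.04, for iNSC_13F minus NSC 0.05 and for iNSC_14F minus NSC 0.09. With scaling to hybridization controls these medians were 0.31, -0.25 and -0.03, and that scaling moved the median of all genes to 0.80, -0.65 and -0.47. Relative to all genes, the ribosomal protein genes were then at -0.49, 0.40 and 0.44, compared with -0.57, 0.53 and 0.54 as deposited. Quantile normalization gave -0.04, -0.32 and -0.28 relative to all genes, a change of sign for both induced arrays. Among all genes at least 2-fold apart, the share higher on NSC than on MEF was 53.3% as deposited and 82.9% with hybridization controls, the share higher on iNSC_13F than on NSC went from 42.0% to 3.34%, and the share higher on iNSC_14F than on NSC from 47.0% to 6.95%. Between the induced arrays it went from 67.0% to 82.1%. Differences between members, such as Rpl7 against Rplp0, are not moved by a factor per array.

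**Figure D4:**
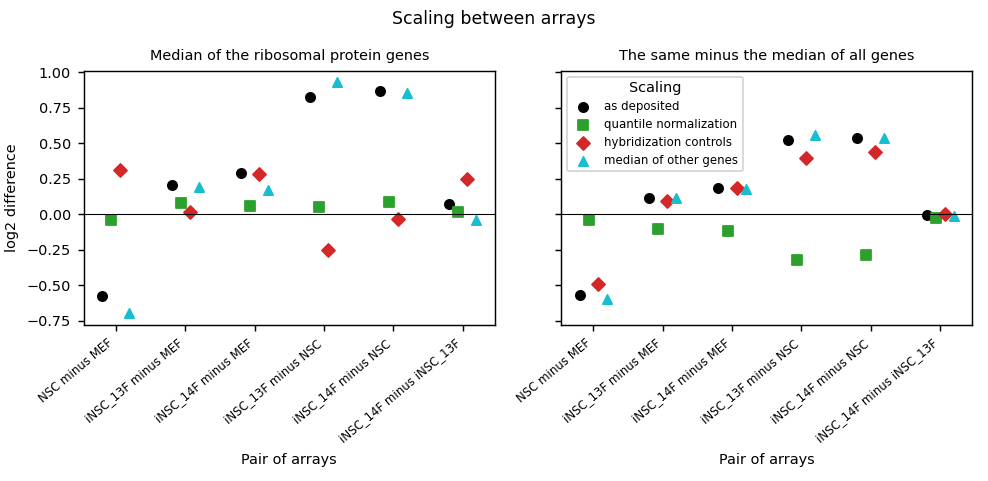
Median log2 difference of the ribosomal protein genes for the 6 pairs of arrays under 4 scalings (left) and the same after subtracting the median of all genes (right). The median for NSC minus MEF is -0.58 as deposited, -0.04 with quantile normalization and 0.31 with hybridization controls, and after subtraction only quantile normalization departs clearly from the other 3 in the pairs with NSC.

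Genes under other symbols also encode ribosome proteins, and 4 of them had a probe set to themselves. Fau, which encodes protein S30 fused to a ubiquitin-like protein, had 32390 on MEF, 21292 on NSC, 37314 on iNSC_13F and 45833 on iNSC_14F, in the order of the bright genes. Rps3a1, which encodes small subunit protein S3A, had 36210, 34753, 36768 and 38083, a much narrower range. Rpl22l1 and Rpl7l1, paralogs of Rpl22 and Rpl7, had 13996, 14479, 16525 and 16695, and 3063, 3126, 5399 and 4093, with NSC slightly above MEF in both.

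Genes that build ribosomes or serve them were counted in the same way, beside the shares of all genes given above for each pair. Of 15 other genes with TOP mRNAs, 0 were at least 2-fold apart between NSC and MEF and their median was -0.50, and for iNSC_13F and iNSC_14F minus NSC the medians were 0.54 and 0.71. At least 2-fold higher were 2 (13.3%) and 3 (20.0%) of the 15, against 14.9% and 16.9% of all genes, and 2 (13.3%) were lower in each, against 20.5% and 19.1%. Eef2, the elongation factor that moves the ribosome along, had 21192 on MEF, 12663 on NSC, 26523 on iNSC_13F and 31264 on iNSC_14F, in the order of the bright ribosomal protein genes. Npm1, the nucleolar chaperone nucleophosmin, had 20825, 25679, 6241 and 7950, with both induced arrays below both references.

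Of 56 ribosome biogenesis genes, 13 (23.2%) were at least 2-fold higher on iNSC_13F than on NSC, against 14.9% of all genes, and 15 (26.8%) lower, against 20.5%. On iNSC_14F 8 (14.3%) were higher than on NSC, against 16.9% of all genes, and 18 (32.1%) lower, against 19.1%. The medians were 0.66 and 0.17, and the interquartile ranges 2.00 and 2.19. NSC was the highest array for 17 of the 56 genes and the lowest for 15. The 3 genes lowest on iNSC_13F relative to NSC were Nop58, Dkc1 and Ncl. On iNSC_14F, Nmd3 (-2.71) stood between Dkc1 (-3.76) and Ncl (-2.45). Nop58, a core protein of box C/D snoRNPs, had signals of 2086 on MEF, 5664 on NSC, 337 on iNSC_13F and 260 on iNSC_14F. Dkc1, the pseudouridine synthase of the other class of snoRNPs, had 1144, 6976, 695 and 515. Ncl, the abundant nucleolar protein nucleolin, had 8970, 18305, 1942 and 3352. Other genes of the list had NSC as the lowest array in the deposited scaling. Nop2, an rRNA methyltransferase, had 1008 on MEF, 483 on NSC, 1369 on iNSC_13F and 1121 on iNSC_14F. Rrp12 had 454, 255, 863 and 540 on these arrays, and Noc4l had 1134, 789, 2407 and 1453. Between NSC and MEF 4 of the 56 (7.14%) were at least 2-fold higher and 2 (3.57%) lower, against 19.6% and 17.2% of all genes. Against MEF 12 (21.4%) were higher and 9 (16.1%) lower on iNSC_13F, where 15.7% and 20.5% of all genes were, and 6 (10.7%) higher and 15 (26.8%) lower on iNSC_14F, where 18.1% and 18.6% were. Between the induced arrays 0 were higher and 3 (5.36%) lower on iNSC_14F, against 5.99% and 2.95% of all genes, with a median of -0.35.

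Of 29 initiation factor genes, 5 (17.2%) were at least 2-fold higher and 8 (27.6%) lower on iNSC_13F than on NSC, against 14.9% and 20.5% of all genes. On iNSC_14F 4 (13.8%) were higher and 9 (31.0%) lower than on NSC, against 16.9% and 19.1%. Eif2s2, the beta subunit of the factor that brings the initiator tRNA, had 13959 on MEF, 13289 on NSC, 813 on iNSC_13F and 1038 on iNSC_14F. Eif3a, the largest subunit of the scaffold factor eIF3, had 6949, 11237, 978 and 1222. Both were low on the induced arrays and high on MEF and NSC. Of 9 elongation, termination and recycling genes, Abce1, the ATPase that splits ribosomes after termination, had 1916, 5759, 160 and 246, and iNSC_13F was 35.9-fold lower than NSC. The median of those 9 genes was 0.61 for iNSC_13F and 0.71 for iNSC_14F minus NSC.

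Of 12 genes for mTOR and TOP mRNA regulators, 4 (33.3%) were at least 2-fold higher and 1 (8.33%) lower on iNSC_13F than on NSC, against 14.9% and 20.5% of all genes. Larp4, a poly(A)-binding protein that stabilises mRNAs, had 1151 on MEF, 3138 on NSC, 240 on iNSC_13F and 251 on iNSC_14F. Eif4ebp1, the translation repressor that mTOR inactivates, had 17718, 3338, 8110 and 6039, highest on MEF and lowest on NSC. Mtor itself had 796, 940, 1463 and 1965.

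The 76 mitochondrial ribosomal protein genes, whose products form the separate ribosome of that organelle, had medians of 0.16 for NSC minus MEF, 0.69 for both induced arrays minus MEF, and 0.59 and 0.62 for iNSC_13F and iNSC_14F minus NSC. On iNSC_13F 15 (19.7%) and on iNSC_14F 17 (22.4%) of the 76 were at least 2-fold higher than on MEF, against 15.7% and 18.1% of all genes. On both arrays 0 of the 76 were at least 2-fold lower than on MEF, where 20.5% and 18.6% of all genes were. Mrps6, of the small subunit of the mitochondrial ribosome, had 3729 on MEF, 5156 on NSC, 12400 on iNSC_13F and 12411 on iNSC_14F, and Mrps34 of the same subunit had 2372, 3915, 5509 and 8229. Mrpl42 of the large subunit had 1570, 5809, 1968 and 2442, highest on NSC. No test of the difference between the gene sets was run, since the design has 1 array per group.

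**Figure D5:**
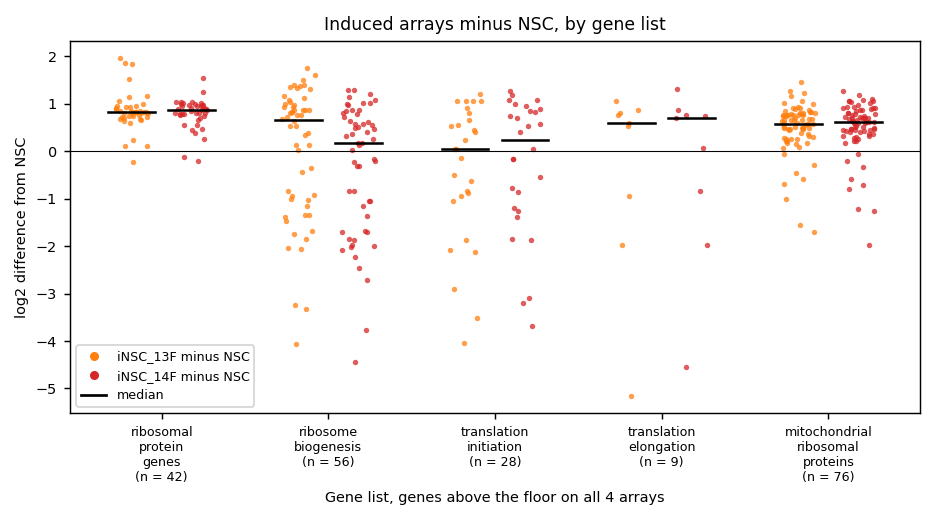
Log2 difference of iNSC_13F (orange) and iNSC_14F (red) from NSC for the genes of 5 lists that were above the floor on all 4 arrays, 1 point per gene with the median as a bar. Ribosomal protein genes lie between -0.24 and 1.97, and ribosome biogenesis, initiation and elongation genes reach down to -4.45, -4.03 and -5.17, all in the deposited scaling.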

How the data were processed

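Signals of 4 arrays were compared, 1 array per group, with groups taken from the cell type labels. The source label, which gives embryonic stem cells throughout, contradicts those labels and was left aside. The deposited values are array intensities on a linear scale. MAS5 made them, per the submitters' processing notes, with no version or settings stated in the sources used here. MAS5 reads each array alone and scales it by 1 factor, and the trimmed mean was 500 on each array.

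Gene names came from the platform annotation, updated through RefSeq: 34945 probe sets named 1 gene (34741 matched by ID), 932 several and 9160 none, beside 64 controls. Where a gene had several, the probe set of highest mean log2 signal stood for it. Values below the floor, the highest of the 4 arrays' 95th percentiles of 86 chemosensory receptor probe sets, were set to it before log2. Genes at least 2-fold apart were counted, with no test, since 1 array per group leaves no residual degrees of freedom.

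Members, gene lists and alternatives were chosen with earlier results of these data known. Named members are the 10 of largest and 5 of smallest range, the 5 brightest, the 3 largest differences each way per pair, those below the floor, stalk, X-linked and paralog genes, and up to 4 genes per related list; Rps3, Rps7, Rps20, Rpl11, Rpl22, Rpl41, Nop2, Rrp12 and Noc4l were added after their values were seen, as were dimmer probe sets. Alternatives were 3 scalings, 3 floors, 2 probe set rules, a filter and a 1.5-fold threshold. Scripts (Python 3.11.15, numpy 2.4.6, pandas 2.3.3) were tested on simulated data.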

Additional observations from a re-analysis of the deposited data

Results flagged for a closer look

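In 7 genes the induced arrays lay on opposite sides of a reference array, with iNSC_13F above and iNSC_14F below it; with 1 array per group the difference was not tested. Around MEF, the value for iNSC_14F minus iNSC_13F was -1.44 for Rps27, -0.83 for Rpl12, -0.44 for Rpl27a, -0.29 for Rps20, -0.26 for Rps7 and -0.13 for Rps24. For Rpl39 it was -1.29, on opposite sides of both MEF and NSC. Rps20, Rps7 and Rps24 are bright genes whose iNSC_14F value was 0.12, 0.03 and 0.02 below MEF. Another bright probe set of each read iNSC_14F above MEF, by 0.13, 0.13 and 0.05. The remaining bright probe sets of Rps24 read it below MEF, at -0.05 and -0.22. The other 4 genes were read by probe sets with a mean signal under 10000.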

How the results depend on the processing

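Over 12 alternatives the median difference of the ribosomal protein genes ranged from -0.70 to 0.31 for NSC minus MEF, 0.02 to 0.22 for iNSC_13F minus MEF, 0.06 to 0.31 for iNSC_14F minus MEF, -0.25 to 0.93 for iNSC_13F minus NSC, -0.03 to 0.88 for iNSC_14F minus NSC and -0.04 to 0.25 between the induced arrays. Scaling to hybridization controls reversed the medians to 0.31 (NSC minus MEF), -0.25 and -0.032 (iNSC_13F and iNSC_14F minus NSC). It also reversed Rpl35 (-0.012) and Rps25 (-0.069) for iNSC_13F minus NSC. For NSC minus MEF it left 2 genes at least 2-fold lower, where 1065 of all 12067 genes measured were. It left 0 higher and 2 lower for iNSC_13F minus NSC, where 151 and 4376 of 11539 were. For iNSC_14F minus NSC it left 0 higher and 3 lower, where 278 and 3722 of 11441 were. Quantile normalization moved the medians of the induced arrays minus NSC to 0.050 and 0.088. It left 2 genes higher on iNSC_14F, against 2354 of all 11123 genes measured for iNSC_14F minus NSC. Of 32 differences of at least 2-fold in named genes, 30 kept their sign under every alternative run. Many of these genes were named for large differences in these same data, and only large differences were counted. The 30 of 32 is therefore no independent check of the differences. The cause of the shifts between alternatives was not tested.

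Counts at least 2-fold apart also moved. Scaling to other genes gave 13 higher and 0 lower for iNSC_13F minus NSC, where 2093 and 2140 of all 11076 genes measured were. It gave 0 lower for iNSC_14F minus NSC, where 2038 of 10574 were. The 99th percentile floor gave 0 lower for both, where 2005 of 9649 and 1811 of 9645 were. The median of probe sets gave 2 and 1 higher on iNSC_13F and iNSC_14F than on MEF, where 1453 of 11026 and 1542 of 10809 genes were. Without _s_at and _x_at probe sets 1 gene was higher on NSC and 2 on iNSC_13F than on MEF, where 2177 of 11075 and 1768 of 11382 genes were. Under the same rule 2 were lower on each induced array than on NSC, where 2242 of 10794 and 2002 of 10438 were. Members above the floor on all 4 arrays held 0 and 2 lower than MEF and 0 and 0 lower than NSC on iNSC_13F and iNSC_14F. Of all 8169 genes above it on all 4 arrays, 1399 and 1163 were lower than MEF, and 1497 and 1304 lower than NSC. At 1.5-fold 21 genes were lower on NSC than on MEF (27.6% of all genes), 4 and 3 higher on iNSC_13F and iNSC_14F than on MEF (28.8% and 31.5%), and 38 and 34 higher than on NSC (35.9% and 38.2%). Alternatives added after seeing the data were leaving out Rps4l and keeping bright genes. Leaving out Rps4l left 1 lower for iNSC_13F minus MEF and 0 lower on either induced array than on NSC. Keeping bright genes left 0 lower in all pairs, 0 higher on iNSC_13F than on MEF and 1 higher on iNSC_13F than on NSC. These alternatives changed the members only, so the shares of all genes given above for each pair apply.

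No paired analysis was possible because each group holds 1 array, and for the same reason leave-one-out values were not run. Signals near the floor, such as Rps16 and Rpl3l, have no order, and folds against them are bounds.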

Other observations

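The housekeeping genes often used beside ribosomal protein genes as references did not keep 1 level either. Of 6 with a probe set to themselves, Actb, the cytoplasmic beta actin, had 46364 on MEF, 27176 on NSC, 42471 on iNSC_13F and 43959 on iNSC_14F, lowest on NSC in the deposited scaling. Pgk1, a glycolytic enzyme, had 26833, 16201, 19230 and 40957, with iNSC_14F more than 2-fold above NSC and iNSC_13F. B2m, the light chain of MHC class I, had 14853, 4727, 3508 and 3203, highest on MEF. The median of the 6 was -0.62 for NSC minus MEF, beside -0.58 for the ribosomal protein genes. In other pairs the medians lay further apart. For iNSC_13F and iNSC_14F minus NSC the 6 had 0.10 and 0.21, against 0.83 and 0.87 for the ribosomal protein genes. For iNSC_13F minus MEF they had -0.30 against 0.20. All these medians are in the deposited scaling.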
